A study of Mus musculus with 22 samples.

Results

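The Hox, Pax, Lhx, Dlx, sine oculis, Irx, Meis and Pbx genes of the mouse encode transcription factors that bind DNA through a homeodomain, a paired domain or both, and they pattern the embryo after implantation. Genes were taken by their symbol, a family name followed by a number, which gave 81 of the 55335 genes in the table. They were 11 Hoxa, 10 Hoxb, 9 Hoxc, 9 Hoxd, 9 Pax, 8 Lhx, 6 Dlx, 6 sine oculis homeobox (such as Six3 and Six4), 6 Irx, 3 Meis and 4 Pbx genes. The question was which of them were silent and which were detected in embryos before implantation, with and without the histone variant H2A.Z.

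RNA-seq was performed on 22 libraries, each a pool of 15 mouse embryos labelled B6D2F1, the offspring of superovulated B6D2F1 females (C57BL/6 × DBA/2) 8 weeks of age and B6D2F1 males. In the KD groups, zygotes had received about 10 pL of siRNA against H2A.Z at 20 µM, so the KD started in the zygote. The treatment of the control embryos of these libraries was not stated. The 6 groups were 2-cell embryos collected 43 to 44 h post hCG injection (4 control and 3 KD libraries), morulae at 78 h (4 control and 3 KD) and blastocysts at 94 h (4 control and 4 KD). The Smart-seq2 libraries start from polyadenylated RNA, with 16 to 18 cycles of preamplification and paired reads of 150 bp. Expression is given as FPKM, a read density corrected for transcript length and library size. Whether replicates came from separate litters was not stated, so the p-values measure only the spread between these libraries.

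The targets of the KD were examined first. H2afz, which encodes H2A.Z.1, was at 1244, 1236, 905 and 1178 FPKM in control 2-cell embryos and at 415, 139 and 112 FPKM in KD 2-cell embryos. It was at 1158, 1336, 1511 and 1421 FPKM in control morulae and at 30.3, 25.7 and 29.0 FPKM in KD morulae. In blastocysts, the control libraries had 2656, 2431, 1945 and 2055 FPKM and the KD libraries 64.2, 67.2, 53.2 and 57.6 FPKM. The KD libraries were thus below all control libraries at each stage, with KD 2-cell replicate 1 the least depleted. H2afv, which encodes the second form H2A.Z.2, lay at 96.8 to 118 FPKM in control and 83.7 to 97.6 FPKM in KD 2-cell embryos. Its levels were 92.5 to 113 FPKM against 9.90 to 12.9 FPKM in morulae, and 49.9 to 63.5 FPKM against 10.6 to 19.9 FPKM in blastocysts. With limma, H2afz fell by 5.41 (log2, adjusted p = 9.71e-08, lower in 3 of 3 KD libraries) in morulae and fell by 5.19 (adjusted p = 3.63e-08, lower in 4 of 4) in blastocysts. At the 2-cell stage the difference of -2.53 had an adjusted p of 0.543 and was not called.

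Hox genes lie in clusters and are activated in order along the body axis after gastrulation, when the chromatin of Polycomb repression is lifted from them. Hox proteins bind DNA together with Pbx and Meis proteins of the TALE class, sine oculis proteins act with Eya cofactors, and LIM homeodomain proteins act with Ldb and Lmo proteins. Transcripts stored in the oocyte are largely degraded around the 2-cell stage, when the embryonic genome is activated.

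Most of these genes were silent or barely detected before implantation. A gene was called active in a group when its mean was above 1 FPKM, silent when every library of the group was under 0.1 FPKM, and low between these levels. In control embryos, 5 genes were active at the 2-cell stage (among them Meis2, Lhx8, Hoxa7 and Pbx3), 1 in morulae (Pbx4) and 2 in blastocysts (Pbx4 and Hoxd8). In KD embryos, 5 were active at the 2-cell stage (Meis2, Lhx8, Hoxa7, Pbx3 and Pbx4), 1 in morulae and 1 in blastocysts (Pbx4 in both). The silent genes numbered 47, 68 and 57 of 81 in control 2-cell embryos, morulae and blastocysts, and 53, 61 and 59 of 81 in the KD embryos of these stages.

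As shares, 6.17%, 1.23% and 2.47% of the 81 genes were active in control 2-cell embryos, morulae and blastocysts, against 40.5%, 37.2% and 38.6% of protein-coding genes. Silent genes made up 58.0%, 84.0% and 70.4% of the 81, against 31.5%, 40.4% and 40.0% of protein-coding genes. Of all genes in the table, 21.4%, 19.4% and 20.0% were active and 52.4%, 61.1% and 60.4% silent in these groups. The shares of the 81 genes that were silent lay nearer to those of all genes than to those of coding genes, and no share was tested. The summed level of all 81 genes was 70.9 to 140 FPKM per library at the 2-cell stage, 3.33 to 5.44 FPKM in control and 6.05 to 7.16 FPKM in KD morulae, and 5.40 to 7.54 FPKM in control and 6.91 to 8.24 FPKM in KD blastocysts. Most of the 2-cell sum was Meis2.

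Over all 22 libraries, 47 of the 81 genes reached 0.1 FPKM in at least 1 library, and 9 of these exceeded 1 FPKM in at least 1 library (among them Hoxa7, Hoxd8, Lhx8, Meis2, Pax6, Pbx3 and Pbx4). A further 26 genes were above 0 in some library but under 0.1 FPKM in every one, among them Dlx1, Dlx4, Dlx5, Dlx6, Hoxa2, Hoxa3, Hoxa5, Hoxa6, Hoxa11, Hoxb3, Hoxb4, Hoxb5, Hoxb6, Hoxc4, Hoxc5, Hoxc6, Hoxc9, Hoxc10, Irx4, Lhx3, Lhx4, Pax5, Pax7, Pax8 and Six2. The remaining 8, Hoxb8, Hoxc8, Hoxc11, Hoxd12, Irx1, Irx6, Pax1 and Six6, were listed at 0 in every library. All genes gave similar shares at 0.1 FPKM (58.0% of the 81 against 59.3% of all genes and 77.7% of coding genes), but at 1 FPKM the share was 11.1%, against 32.2% of all genes and 54.7% of coding genes. The deposited values hold no read counts. From the spacing of low values in 9436 single-exon genes of at least 600 bases, 1 step for a transcript of 2.0 kb was estimated at 0.017 to 0.0285 FPKM. The estimate is rough, since only 22.6% to 37.8% of low values lay on a step and some genes had values far below it (Pax5 down to 3.4e-05 FPKM and Hoxa3 to 0.000174 FPKM). A gene listed at 0 may still have been present at a low level. None of 10 housekeeping genes was listed at 0 in any library.

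Detection was counted by family, beside the 58.0% of the 81 genes that reached 0.1 FPKM and without a test between families. Every Meis gene and 3 of 4 Pbx genes reached 0.1 FPKM in some library, as did 21 of 39 Hox genes, 5 of 9 Pax, 6 of 8 Lhx, 2 of 6 Dlx, 3 of 6 Irx and 4 of the 6 sine oculis genes. The 34 genes that did not reach it varied in how often they were above 0. Hoxa2, Hoxa6, Hoxb5 and Pax7 were above 0 in 1 of 22 libraries, and Hoxa5, Hoxa11, Hoxb4 and Hoxc10 in 2, whereas Hoxc9 was above 0 in 10, Hoxa3 in 9 and Pax8 in 7. Pax5, a regulator of B cells, was above 0 in 21 libraries, but never above 0.0547 FPKM. The highest value among the 34 was 0.0959 FPKM, for Irx4 in KD blastocyst replicate 5.

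**Figure D1:**
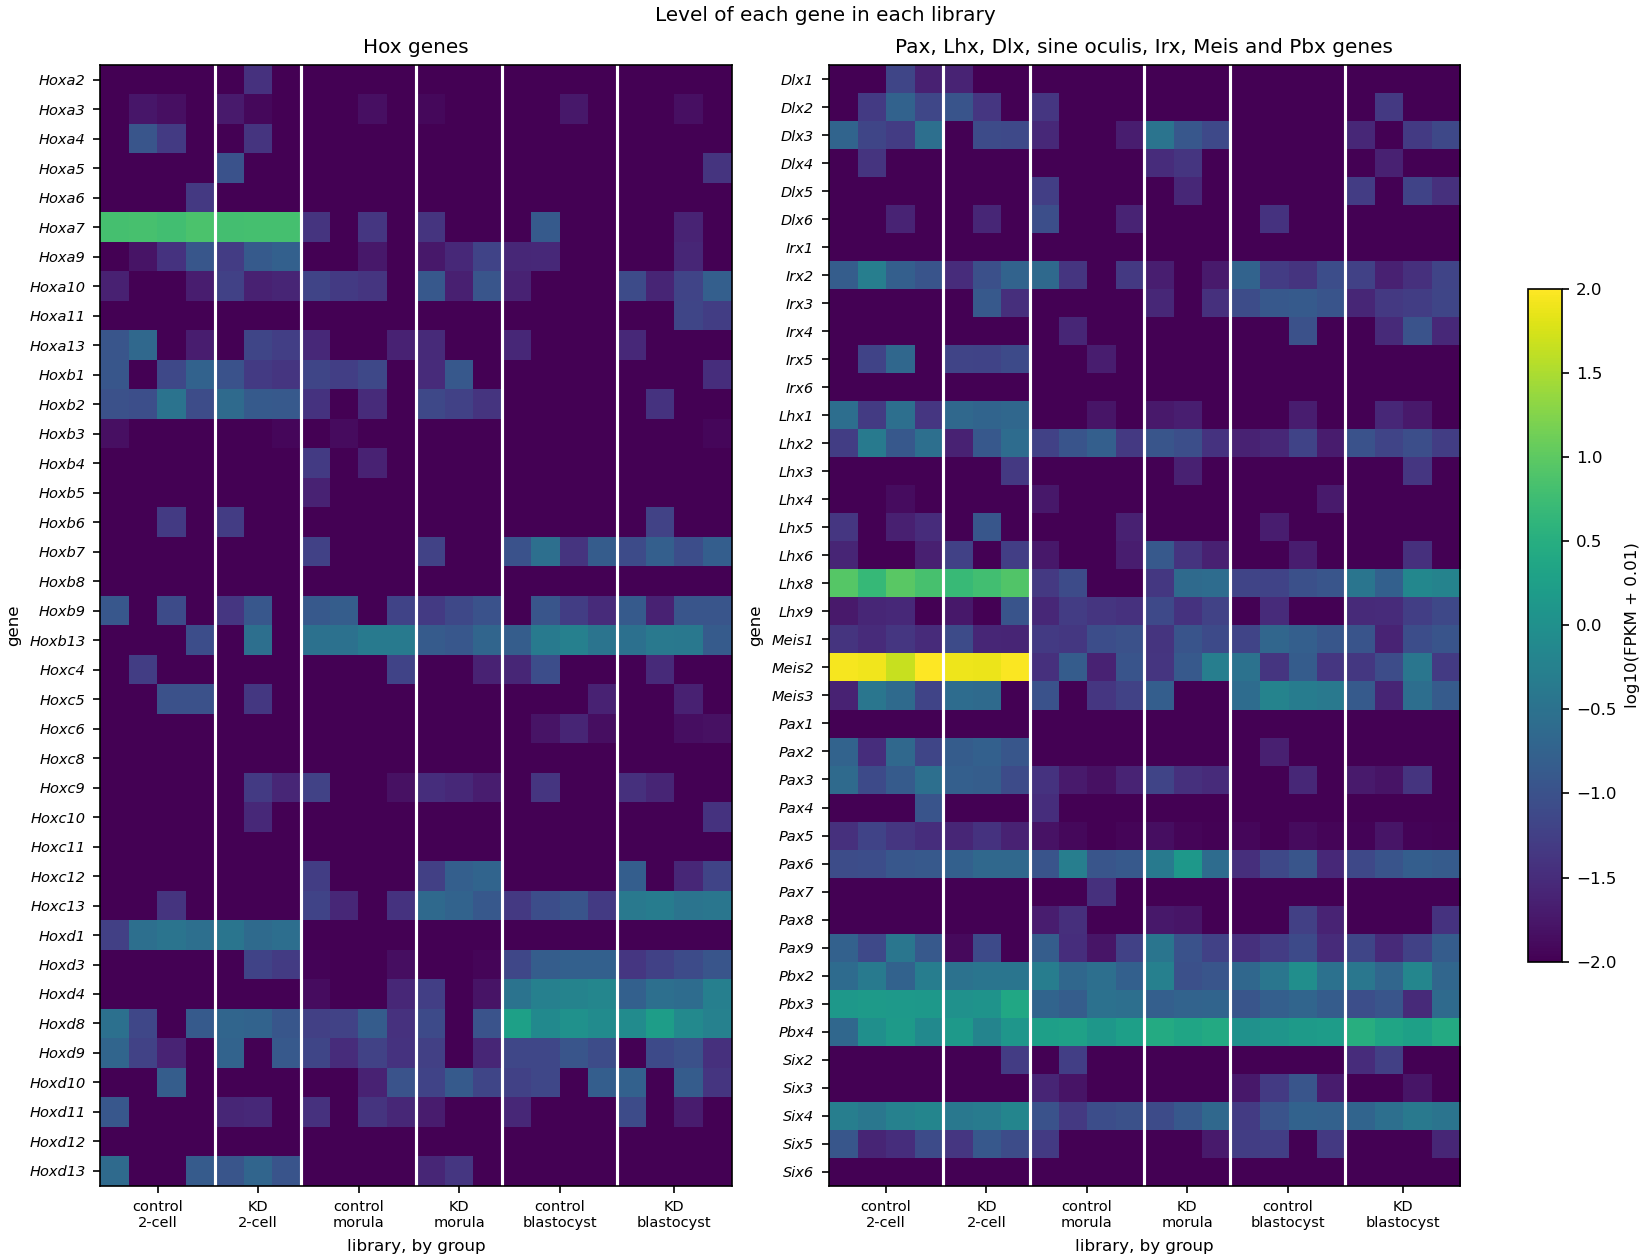
Level of 78 of the 81 genes (vertical axis) in each of the 22 libraries (horizontal axis, ordered by group), as log10(FPKM + 0.01), with Hox genes on the left and the Pax, Lhx, Dlx, sine oculis, Irx, Meis and Pbx genes on the right. Meis2, Lhx8 and Hoxa7 are bright in the 7 libraries of 2-cell embryos, Pbx4 is above 0.2 FPKM in all libraries, and the dark cells hold the silent genes.

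The largest change in normal development was the loss of 3 transcripts between the 2-cell stage and the morula. Meis2, Lhx8 and Hoxa7, which encode a TALE cofactor of Hox proteins, a LIM homeodomain factor needed for oocyte development and a Hox factor of the trunk, were the most abundant genes of the set at the 2-cell stage, and all 3 fell to under 0.2 FPKM in every control morula. Pbx3 was lower in morulae as well, by less than the size required for a call. Pbx4 had the opposite direction.

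Meis2 (ENSMUSG00000027210.20, GRCm38 chromosome 2, 115863064 to 116065839, minus strand) was at 88.4, 82.3, 46.6 and 118 FPKM in the 4 control libraries of 2-cell embryos and at 0.0259, 0.135, 0.0140 and 0.1 FPKM in those of morulae. The means were 83.9 ± 29.4 and 0.0687 ± 0.0583 FPKM (SD, n = 4 each), and no library of one stage came near the other. In control blastocysts it remained low, at 0.310, 0.0317, 0.134 and 0.0335 FPKM. The fitted log2 fold change from 2-cell embryos to morulae was -6.20 (SE 0.262, limma, adjusted p = 1.17e-09, lower in 4 of 4 morula libraries), on the log2(FPKM + 1) scale, which understates changes of genes that reach low levels.

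Lhx8 (ENSMUSG00000096225.7, chromosome 3, 154306294 to 154330659, minus strand) was at 8.95, 4.76, 9.41 and 6.75 FPKM in control 2-cell embryos. In control morulae it was at 0.0368 and 0.0727 FPKM in replicates 1 and 2 and listed at 0 in replicates 7 and 8. All 4 morulae were far below all 2-cell libraries, and the gene fell by 2.97 on the same log2 scale (SE 0.182, adjusted p = 2.29e-08). Hoxa7 (ENSMUSG00000038236.8, chromosome 6, 52214491 to 52221854, minus strand) was close to constant among control 2-cell libraries, at 6.71, 6.92, 6.07 and 7.30 FPKM (6.75 ± 0.514, SD, n = 4). It was at 0.0295 and 0.0335 FPKM in control morula replicates 1 and 7 and listed at 0 in replicates 2 and 8, and it fell by 2.90 (SE 0.139, adjusted p = 3.15e-09). Hoxa7 shares 586 exonic bases, 20.4% of its exonic length, with the antisense gene Hoxaas3, whose mean in control 2-cell embryos was 0.123 FPKM, and reads of the 2 cannot be told apart without strand.

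The Pbx genes, whose products bind DNA with Hox proteins, differed among themselves. Pbx3 (ENSMUSG00000038718.15, chromosome 2, 34171457 to 34373142, minus strand) was at 1.35, 1.53, 1.44 and 1.37 FPKM in control 2-cell embryos and at 0.187, 0.140, 0.301 and 0.275 FPKM in control morulae. The groups did not overlap, and the log2 fold change of -0.97 (SE 0.116, limma, adjusted p = 7.66e-06, lower in 4 of 4) was just under the size of 1 required for a call. With a pseudocount of 0.1 in place of 1, it was -2.25 (adjusted p = 8.10e-06, 5.64e-06 to 0.00011 over all alternatives) and was called, as was Pbx4 at 1.13 (adjusted p = 0.0249), a call that Pbx4 lost when the filter was also left out (adjusted p = 0.069). Pbx4 (ENSMUSG00000031860.17, chromosome 8, 69832491 to 69872292, plus strand) was at 0.207, 0.970, 1.48 and 0.781 FPKM in control 2-cell embryos and at 1.83, 1.96, 1.30 and 1.82 FPKM in control morulae. A single 2-cell library lay within the morula range, and the log2 fold change was 0.59 (SE 0.193, adjusted p = 0.0129, 0.00438 to 0.069 over the alternatives), not called. Pbx2 lay between 0.0834 and 0.947 FPKM over all 22 libraries without separating any groups.

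Of the 81 genes, 5 passed the filter on low values in this comparison (at least 1 FPKM in at least 3 libraries), and 3 were called lower, where 30.1% of the 13655 genes tested were called lower, and 0 were called higher with limma, where 32.1% of all were. All 5 had an unadjusted p under 0.05, as did 11486 of all genes tested. A gene that passes the filter through the stage where it is high has to differ, so these counts are a description. Of the 61 genes that were under the filter but above 0 in some library, 9 had every morula below every 2-cell library (among them Dlx3, Hoxb2, Hoxd1, Lhx1, Pax2, Pax3, Pax5 and Six4), against 17.3% of all such genes, and 2 had every morula above (Hoxb13 and Meis1), against 8.36%. A further 15 were listed at 0 in all 8 libraries. Each of these 11 genes had an exact two-sided permutation p of 0.0286, the smallest that 4 against 4 libraries can give, unadjusted, and since they were picked for not overlapping it adds no support.

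Six4 (ENSMUSG00000034460.9, chromosome 12, 73099609 to 73113456, minus strand), which acts in muscle and sensory organ development, was highest at the 2-cell stage. It was at 0.498, 0.379, 0.555 and 0.640 FPKM in control 2-cell embryos and at 0.0909, 0.0368, 0.0766 and 0.0884 FPKM in control morulae. No morula lay within its 2-cell range. In a fit of all genes above 0 with a pseudocount of 0.1, chosen after the data were seen, Six4 fell by 1.82 (SE 0.242, limma, adjusted p = 0.000341, lower in 4 of 4). Without the filter but with a pseudocount of 1, its adjusted p was 0.000334, and the size was under that of a call. In that added fit, 10 of 66 genes were called lower (among them Dlx3, Hoxa7, Hoxd1, Lhx1, Lhx8, Meis2, Pax3, Pbx3 and Six4), against 21.4% of all genes, and 1 higher (Hoxb13), against 17.5%.

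Hoxd1, which acts in sensory neurons, was at 0.0467, 0.282, 0.331 and 0.276 FPKM in control and 0.351, 0.227 and 0.268 FPKM in KD 2-cell embryos. It was listed at 0 in all 15 libraries of morulae and blastocysts. Hoxb13 (ENSMUSG00000049604.3, chromosome 11, 96194316 to 96197447, plus strand), a posterior Hox gene of the tail and prostate, was higher in control morulae. It was listed at 0 in 3 control libraries of 2-cell embryos and at 0.0794 FPKM in the other, at 0, 0.275 and 0 FPKM in KD 2-cell embryos, and at 0.295, 0.302, 0.433 and 0.440 FPKM in control morulae. All control morulae were above all control 2-cell libraries, with a log2 fold change in the added fit of 1.98 (SE 0.285, limma, adjusted p = 0.000537). In blastocysts it was at 0.141, 0.441, 0.537 and 0.337 FPKM in control and 0.287, 0.411, 0.395 and 0.132 FPKM in KD embryos, which overlapped.

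Pax2, Pax3, Lhx1 and Hoxb2 were likewise highest at the 2-cell stage, and they were chosen after their values were seen. Not every Pax gene had this direction, and Pax8 was listed at 0 in all 7 libraries of 2-cell embryos and reached 0.0465 FPKM later. Pax2 was at 0.18, 0.0233, 0.216 and 0.0573 FPKM in control 2-cell embryos and listed at 0 in all 7 morula libraries. Pax3 was at 0.234, 0.0701, 0.132 and 0.28 FPKM and then at 0.0291, 0.00937, 0.0052 and 0.0154 FPKM in control morulae. Lhx1, which acts in kidney and head formation, was at 0.265, 0.0387, 0.275 and 0.0331 FPKM and above 0 in a single control morula, at 0.00695 FPKM. In all 3 genes the 2-cell libraries spread widely, and none fell inside the morula range. Hoxb2, a hindbrain gene, was at 0.0875, 0.082, 0.321 and 0.0742 FPKM and did not exceed 0.029 FPKM in control morulae. It shares 953 exonic bases, 27.3% of its exonic length, with Hoxb3os, and the reads of these genes cannot be told apart. Meis1 had the opposite direction, at 0.0206 to 0.0328 FPKM in control 2-cell embryos, 0.0348 to 0.0879 FPKM in control morulae and 0.0569 to 0.2 FPKM in control blastocysts.

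Between the morula and the blastocyst, Hoxd8, Hoxd4 and Hoxd3, neighbours in the Hoxd cluster, were higher in each control blastocyst library than in each control morula library. Hoxd8 was the most abundant of them. Hoxd9, next to Hoxd8, was separated only narrowly, with 0.0597 FPKM in the highest morula and 0.0604 FPKM in the lowest blastocyst, and it reached 0.195 FPKM in a control library of 2-cell embryos. Outside the cluster, the TALE gene Meis3 and Irx3, a factor of neural and limb patterning, did not overlap between the stages either.

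Hoxd8 (ENSMUSG00000027102.4, chromosome 2, 74704615 to 74707933, plus strand) was at 0.0478, 0.0522, 0.133 and 0.0270 FPKM in control morulae and at 1.89, 0.789, 1.06 and 0.855 FPKM in control blastocysts (1.15 ± 0.509, SD, n = 4). Hoxd4 (74711929 to 74729160, plus strand) was listed at 0 in 2 control morulae and at 0.00342 and 0.0181 FPKM in the other 2, and at 0.325, 0.534, 0.615 and 0.685 FPKM in control blastocysts. Both genes were thus higher in each blastocyst than in any morula. Hoxd8 was also detected at the 2-cell stage, at 0.286, 0.0606, 0 and 0.126 FPKM in control and 0.193, 0.178 and 0.107 FPKM in KD embryos. Hoxd3 did not exceed 0.00407 FPKM in control morulae and lay between 0.0621 and 0.161 FPKM in control blastocysts. Hoxd3 and Hoxd4 share 388 exonic bases, and each also shares 347 with the antisense gene Hoxd3os1 (mean 0.733 FPKM in control blastocysts). With the gene model Gm28230, Hoxd4 shares 1154 and Hoxd3 shares 2225, which is 53.1% of the exonic length of Hoxd3. The reads of Hoxd3 and Hoxd4 therefore cannot be told apart fully from those of these genes, whereas Hoxd8 shares none. Meis3 was at 0.0901, 0, 0.0330 and 0.0523 FPKM in control morulae and at 0.253, 0.596, 0.470 and 0.398 FPKM in control blastocysts.

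Only Pbx4 passed the filter in this comparison. At 1.06, 1.22, 1.5 and 1.62 FPKM in control blastocysts it overlapped the morulae, with a log2 fold change of -0.27 (SE 0.142, limma, adjusted p = 0.126), and 0 genes were called higher (13.4% of 11849 genes tested) or lower (12.9%), also at an unadjusted p under 0.05, which 7253 of all genes passed. Among 60 genes under the filter and above 0, 6 had every blastocyst above every morula (Hoxd3, Hoxd4, Hoxd8, Hoxd9, Irx3 and Meis3), against 8.24% of such genes, and 0 had every blastocyst below, against 6.01%. The other 20 were at 0 in both groups. The exact two-sided p was 0.0286 for each of the 6 and, as they were picked for not overlapping, is no support. In the fit of all genes with a pseudocount of 0.1, 4 of 61 genes were called higher, against 9.06% of all genes, and 0 lower, against 8.15%. These were Hoxd8 (log2 2.81, SE 0.377, adjusted p = 0.00114), Hoxd4 (2.5, SE 0.228, adjusted p = 0.000186), Meis3 (1.82, SE 0.285, adjusted p = 0.00243) and Hoxd3 (1.12, SE 0.146, adjusted p = 0.00101), each higher in 4 of 4 libraries. With a pseudocount of 1 and no filter their adjusted p lay between 0.000551 and 0.00726, at sizes under that of a call.

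**Figure D2:**
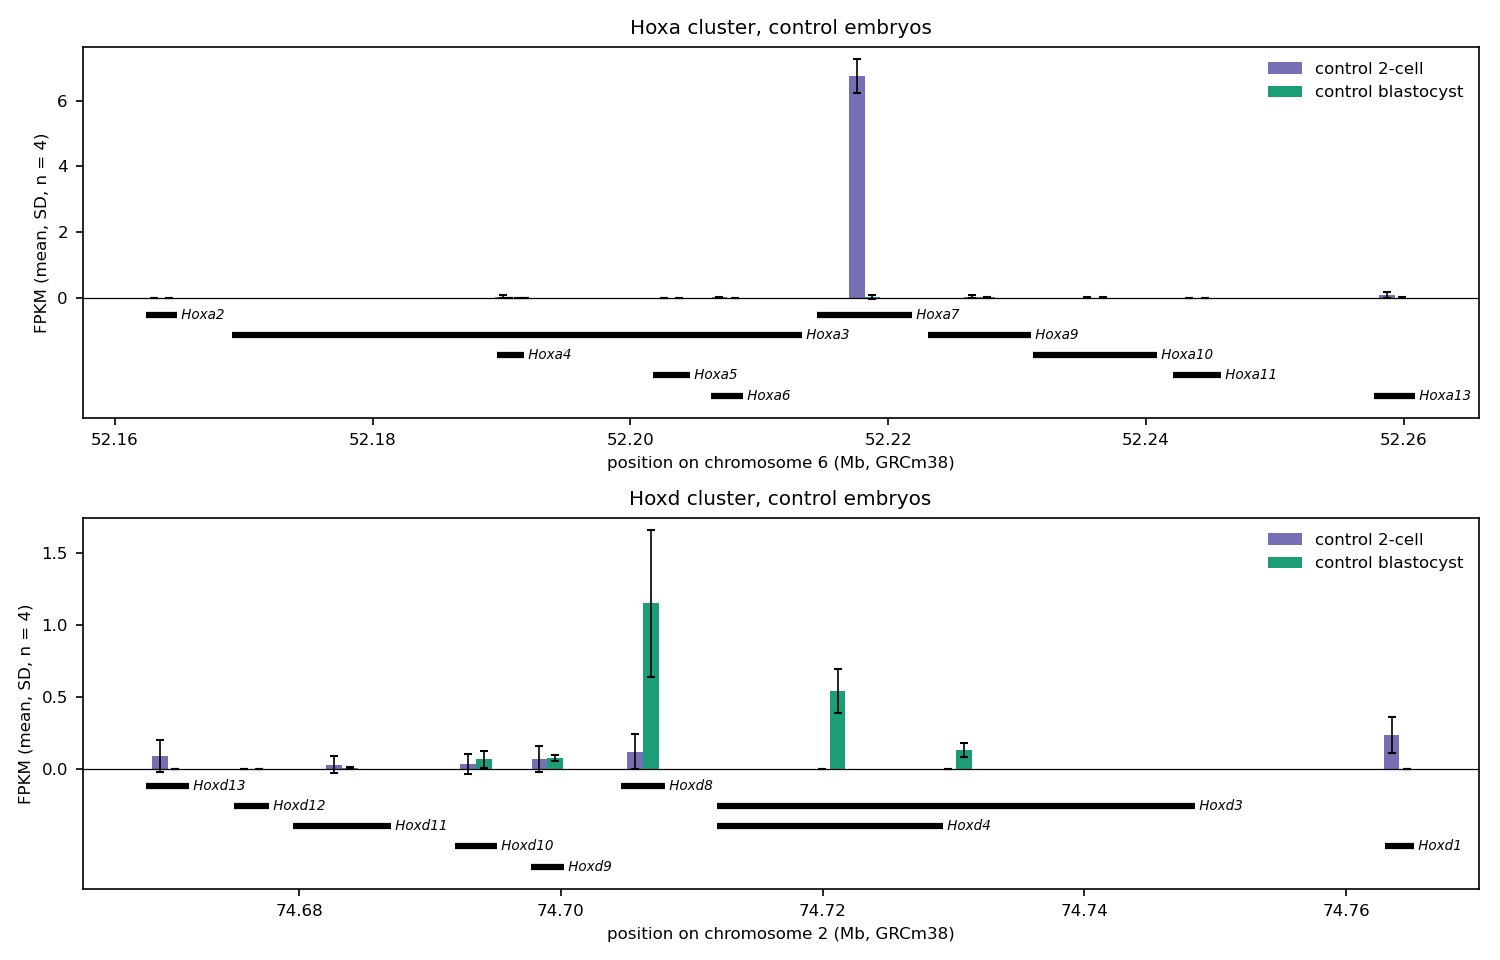
Mean FPKM with SD (n = 4) of control 2-cell embryos and control blastocysts for genes of the Hoxa cluster (chromosome 6) and the Hoxd cluster (chromosome 2), drawn at the middle of the gene along the GRCm38 position in Mb, with gene extents as black lines. In the Hoxa cluster Hoxa7 stands alone at 6.75 FPKM in 2-cell embryos, and in the Hoxd cluster the blastocyst signal lies at Hoxd8, Hoxd4 and Hoxd3.

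The clusters differed in how many of their genes were detected, which was not tested. In the Hoxa cluster (chromosome 6), 6 of 11 genes reached 0.1 FPKM in some library and 0 were listed at 0 throughout. The genes on either side of Hoxa7 were near silent, with a maximum of 0.0364 FPKM for Hoxa6 and 0.159 FPKM for Hoxa9. In the Hoxb cluster (chromosome 11, 96194316 to 96368256), 5 of 10 genes reached 0.1 FPKM, with Hoxb13 the highest. In the Hoxc cluster (chromosome 15, 102921103 to 103036852) 2 of 9 did, Hoxc12 and Hoxc13, and in the Hoxd cluster (chromosome 2, 74668310 to 74765142) 8 of 9 did. Of the 81 genes, 32 share exonic bases with another gene, whereas Meis2, Lhx8, Pbx3, Pbx4, Six4, Hoxb13 and Hoxc13 share none.

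At the 2-cell stage, KD and control embryos had much the same levels of the active genes. Meis2 was at 79.0, 76.5 and 95 FPKM in KD embryos, within the control range. Lhx8 was at 4.94, 6.25 and 8.18 FPKM and Hoxa7 at 6.44, 6.58 and 6.61 FPKM, also within it. Pbx3 was at 1.04, 1.11 and 2.41 FPKM, on both sides of the controls, and Pbx4 at 1.45, 0.625 and 1.27 FPKM. The 5 genes that passed the filter had log2 fold changes between -0.11 and 0.25 (limma, adjusted p from 0.879 to 0.989).

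In this comparison, 0 of the 5 were called higher and 0 lower, with 0 at an unadjusted p under 0.05, and 0% of the 12160 genes tested were called in either direction, with 701 at that unadjusted p. A difference that misses the test does not show that levels were equal. Of 56 genes under the filter and above 0, only Pax6 did not overlap, higher in KD embryos at 0.156, 0.218 and 0.212 FPKM against 0.0742, 0.0770, 0.113 and 0.120 FPKM in controls (exact two-sided p = 0.0286, the smallest that 4 against 3 libraries can give, and no support for a gene picked for not overlapping). That was 1 gene higher, where 1.5% of all such genes were, and 0 lower, where 2.07% were. The other 20 genes were at 0 in both groups.

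In morulae, KD embryos differed from controls mainly in genes near the limit of detection. Pbx4 was the only gene active in either group. The posterior genes Hoxc13 and Hoxc12, with Dlx3 of the placenta and skin, Hoxa9, Hoxb2 and Lhx6, lay higher in each KD library than in each control library, and Hoxb13 lower. Pax6, the regulator of eye and forebrain development, overlapped.

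Pbx4 was at 2.81, 2.27 and 2.69 FPKM in KD morulae, above all 4 controls, with a log2 fold change of 0.48 (SE 0.158, limma, adjusted p = 0.0691, 0.0609 to 0.358 over the alternatives, unadjusted p = 0.0117), so 0 of 1 gene tested was called higher (0.992% of 10989 genes) or lower (2.53%), and 1 passed an unadjusted p under 0.05, as did 3352 of all. Hoxc13 (ENSMUSG00000001655.6, chromosome 15, 102921103 to 102928814, plus strand), which acts in hair and nails, was at 0.224, 0.178 and 0.114 FPKM in KD morulae and at 0.0532, 0.0175, 0 and 0.0282 FPKM in controls. Hoxc12, its neighbour in the cluster, was at 0.0482, 0.154 and 0.182 FPKM in KD morulae and at 0.0427 FPKM in 1 control, listed at 0 in the other 3. Dlx3 was at 0.332, 0.111 and 0.0660 FPKM in KD morulae and did not exceed 0.0184 FPKM in controls. In each of these genes the KD libraries spread widely among themselves. Hoxc12, Dlx3 and the other genes outside the 10 highest were chosen after their values were seen.

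Hoxb13 was at 0.131, 0.113 and 0.192 FPKM in KD morulae, below the 0.295 to 0.440 FPKM of controls. In KD morulae, Meis2 was at 0.0310, 0.121 and 0.513 FPKM, Lhx8 at 0.0352, 0.233 and 0.25 FPKM, Hoxa7 at 0.0307, 0 and 0 FPKM, Pbx3 at 0.153, 0.176 and 0.183 FPKM and Hoxd8 at 0.0697, 0 and 0.0940 FPKM, each overlapping the controls. Pax6 (ENSMUSG00000027168.21, chromosome 2, 105668900 to 105697364, plus strand) was at 0.414, 1.34 and 0.248 FPKM in KD morulae and at 0.101, 0.512, 0.102 and 0.121 FPKM in control morulae. Replicate 2 was the highest in both groups, and 1 control lay above 2 KD libraries, while replicates 1 and 2 were each higher in KD than in the control of the same number, and KD replicate 6 was above control replicates 7 and 8. Of 60 genes under the filter and above 0, 6 were higher without overlap, where 3.6% of such genes were, and 1 lower, where 5.21% were, while 20 were at 0 throughout. The exact two-sided p was 0.0286, except 0.0571 for Hoxb2, in genes picked for not overlapping, so that it supports none of them. In the fit of all genes with a pseudocount of 0.1, 1 of 61 genes was called higher, Hoxc13 (log2 1.17, SE 0.206, limma, adjusted p = 0.0489, higher in 3 of 3), against 0.252% of all genes, and 0 lower, against 0.924%. With a pseudocount of 1 and no filter, Hoxc13 had an adjusted p of 0.0479 and a log2 fold change of 0.20.

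In blastocysts, Hoxc13 and Lhx8, both at low level, lay higher in each KD library than in each control library. Six4 and Hoxa10 also lay higher, and Irx3 and Six3 lower, without overlap. Among the active genes, Pbx4 was higher in KD embryos by less than the size required for a call, and Hoxd8 overlapped.

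Hoxc13 was at 0.410, 0.465, 0.338 and 0.368 FPKM in KD blastocysts and at 0.0368, 0.0772, 0.101 and 0.0379 FPKM in controls (0.395 ± 0.0548 against 0.0632 ± 0.0314, SD, n = 4 each). The lowest KD library was above the highest control by a wide margin. Lhx8 was at 0.346, 0.161, 0.693 and 0.595 FPKM in KD blastocysts and at 0.0560, 0.0532, 0.0845 and 0.104 FPKM in controls. In the fit of all genes with a pseudocount of 0.1, these were the 2 of 62 genes called higher, against 3.73% of all genes, and 0 were called lower, against 4.37%. Hoxc13 rose by 1.62 (SE 0.253, limma, adjusted p = 0.00723) and Lhx8 rose by 1.53 (SE 0.361, adjusted p = 0.032) in that fit, each higher in 4 of 4 libraries. With a pseudocount of 1 and no filter the adjusted p was 0.00535 and 0.0468, at log2 fold changes of 0.39 and 0.40. In bulk libraries, fewer or more cells with a transcript and less or more RNA per cell cannot be told apart.

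The summed level of 5 markers of the 2-cell embryo was also higher in each KD blastocyst library than in each control library. The sum (Zscan4c, Zscan4d, Zfp352, Tdpoz4 and Usp17lc) was 3.08, 14.0, 3.30 and 9.55 FPKM in KD blastocysts 1, 4, 5 and 6 and 0.787, 0.964, 0.291 and 0.716 FPKM in controls, with Zfp352 the most abundant at a mean of 3.28 FPKM in KD embryos and 0 of the 5 listed at 0. Only Zfp352 passed the filter, and it rose by 1.56 (SE 0.291, limma, adjusted p = 0.00157), where 6.06% of all genes tested were called higher. As Zfp352 did not exceed 0.772 FPKM in control blastocysts, it passed the filter through the KD libraries, and its call is a description. The other 4 markers were not tested. The part of these transcripts in the level of Lhx8 was not tested.

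Pbx4 was at 3.22, 2.24, 1.87 and 2.83 FPKM in KD blastocysts, above all controls, with a mean of 2.54 ± 0.602 against 1.35 ± 0.255 FPKM (SD, n = 4 each). The log2 fold change was 0.59 (SE 0.182, limma, adjusted p = 0.0237, higher in 4 of 4 libraries). Leaving out single libraries moved this p past 0.05 in 4 cases, to 0.0553 without control replicate 1, 0.0653 without control replicate 4, 0.0625 without KD replicate 1 and 0.0608 without KD replicate 6, and it was 0.0613 without the filter, within a range of 0.00808 to 0.0653 over the alternatives. Hoxd8 was at 0.843, 1.69, 0.743 and 0.568 FPKM in KD blastocysts and overlapped the controls (log2 fold change -0.13, SE 0.227, adjusted p = 0.685). Of these 2 genes tested, 0 were called higher (6.06% of 11828 genes) and 0 lower (7.69%), and 1 had an unadjusted p under 0.05, as did 5439 of all genes.

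Six4 was at 0.188, 0.283, 0.401 and 0.339 FPKM in KD blastocysts, against 0.0402, 0.0974, 0.174 and 0.162 FPKM in controls. Irx3 was lower, at 0.0171, 0.0355, 0.0434 and 0.0582 FPKM in KD against 0.0741, 0.115, 0.125 and 0.0977 FPKM in control blastocysts. Both genes stayed under 0.5 FPKM in every blastocyst library, and the ranges of the groups lay close together. Of 60 genes under the filter and above 0, 4 were higher without overlap (Hoxa10, Hoxc13, Lhx8 and Six4), where 5.21% of such genes were, and 2 lower (Irx3 and Six3), where 4.04% were, and 19 were at 0 in both groups. Their exact two-sided p of 0.0286 follows from the choice of genes that do not overlap and is no support. The Hoxd genes detected at this stage overlapped between the groups. Hoxd4 was at 0.159, 0.282, 0.247 and 0.532 FPKM in KD blastocysts, and Meis3 at 0.124, 0.0160, 0.273 and 0.131 FPKM, with the highest KD library of each inside the control range. Meis2 was at 0.0347, 0.0759, 0.363 and 0.0385 FPKM and Hoxa7 at 0, 0, 0.0154 and 0 FPKM in KD blastocysts, both overlapping the controls, in which Hoxa7 was at 0.126 FPKM in replicate 4 and listed at 0 in the other 3. Pbx3 was at 0.103, 0.150, 0.190 and 0.138 FPKM in control and 0.0810, 0.104, 0.0198 and 0.234 FPKM in KD blastocysts. Pax6 was at 0.0250, 0.0629, 0.103 and 0.0189 FPKM in control and 0.0643, 0.0987, 0.147 and 0.132 FPKM in KD blastocysts, and both genes overlapped between the groups.

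The effect of the KD in blastocysts was compared with that in morulae by an interaction term. Pbx4 had a difference of 0.07 (SE 0.232, limma, adjusted p = 0.884) and Hoxd8 of -0.14 (adjusted p = 0.788). So 0 of 2 genes tested were called higher (3.52% of 12727 genes) or lower (4.12%), with 0 at an unadjusted p under 0.05, where 3480 of all genes were. With a pseudocount of 0.1 and no filter, 0 of 68 genes were called with limma in either direction, where 1.01% of 37157 genes were called higher and 0.953% lower. A difference between the stages was thus neither shown nor excluded for Hoxc13 and Lhx8. The comparisons of stages and of KD embryos share the control libraries, and their values are therefore set side by side here without a measure of their likeness.

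**Figure D3:**
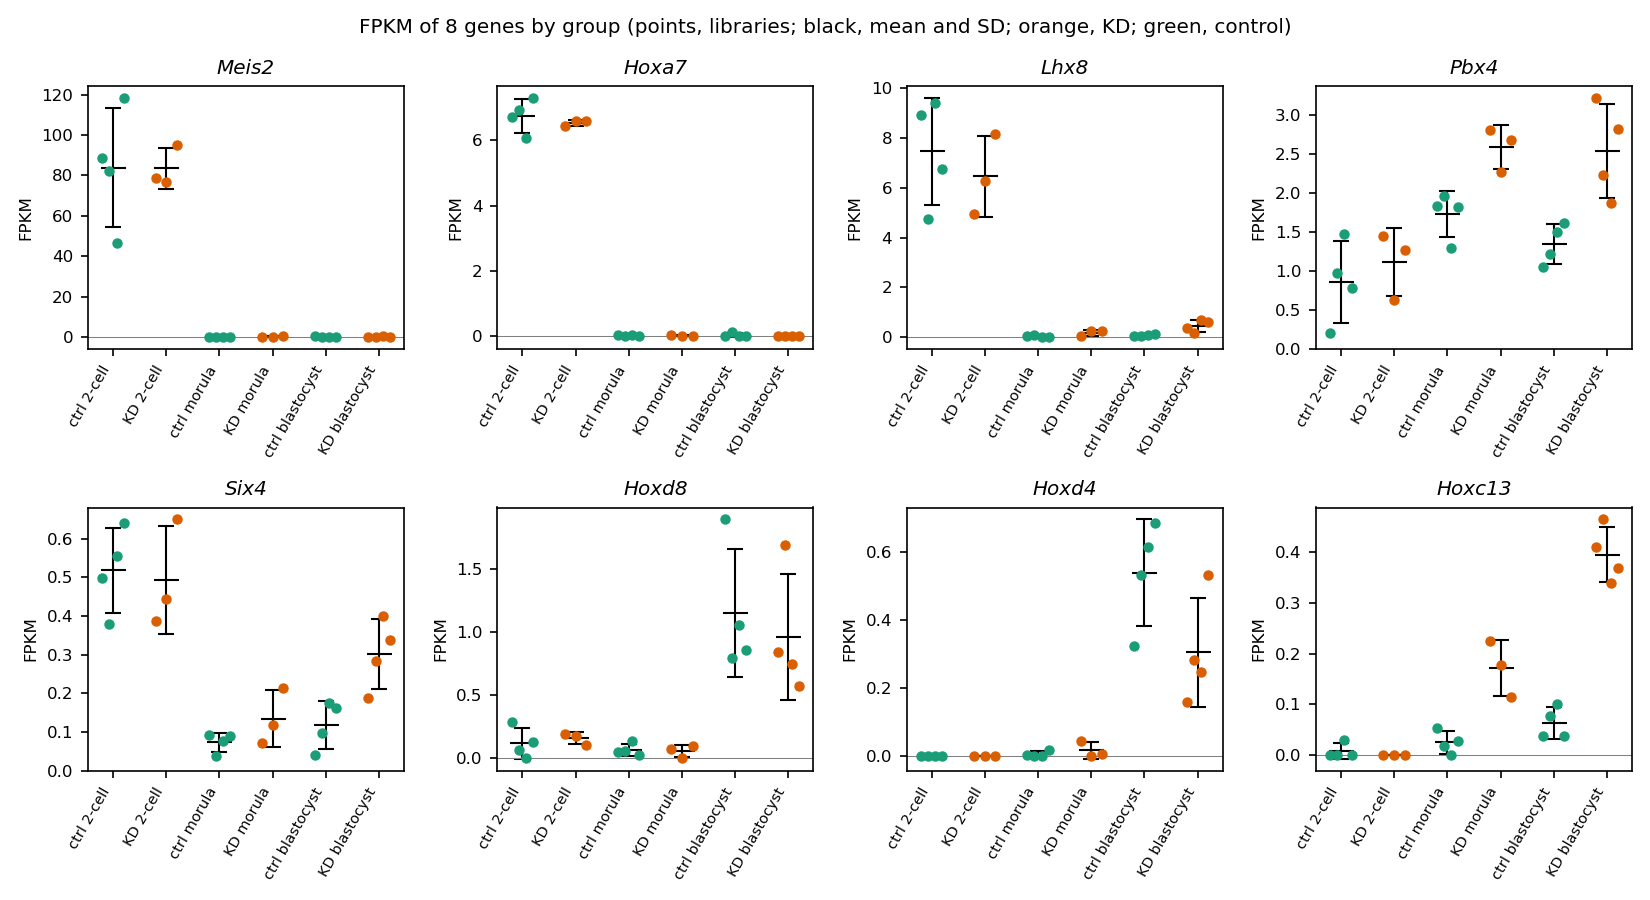
FPKM of selected genes in each library (points) with the group mean and SD (n = 3 or 4) for the 6 groups on the horizontal axis, 1 panel per gene. The 2-cell levels of Meis2 (46.6 to 118 FPKM) and Hoxa7 (6.07 to 7.30 FPKM) are not approached in later stages, and Hoxc13 in KD blastocysts (0.338 to 0.465 FPKM) lies above all other groups.

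Of the remaining genes drawn that were above 0.1 FPKM, those with the highest maxima were Irx2, Lhx2 and Pax9, factors of the heart and limb, the forebrain, and the teeth and thymus. Irx2 ranged from 0 to 0.513 FPKM, Lhx2 from 0.0105 to 0.418 FPKM and Pax9 from 0 to 0.362 FPKM over the 22 libraries, each with its highest value in a control library of 2-cell embryos. The genes drawn with no value given here stayed under 0.35 FPKM in every library.

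Genes whose products act with these factors were examined next. Of 11 partners and regulators of Hox and TALE proteins, 6 were tested between control 2-cell embryos and morulae. In that interval, 30.1% of all genes tested were called lower and 32.1% higher. Psip1, which tethers MLL proteins to chromatin, fell by 3.71 (SE 0.206, limma, adjusted p = 1.03e-08), and Tgif1, a TALE repressor, rose by 2.96 (adjusted p = 5.49e-08). Between control morulae and blastocysts, where 12.9% and 13.4% were called lower and higher, Tgif2 fell by 1.29 and Tgif1 rose by 1.08. Of 6 Eya and Dach genes, 2 were tested and Eya1 fell by 1.91 (adjusted p = 1.87e-07) between 2-cell embryos and morulae, the interval in which Six4 was lower. Of 10 LIM domain cofactors, 6 were tested in that interval, 3 fell and 1 rose, where 30.1% and 32.1% of all genes tested did, led by Lmo1, which lay at 194 ± 43.8 FPKM in control 2-cell embryos and 1.12 ± 0.658 FPKM in morulae and fell by 6.53 (adjusted p = 3.54e-10). Of 23 noncoding RNA genes beside the set, 1 was tested, and Hotairm1 fell by 1.30 (adjusted p = 0.000128). Eya1 and Hotairm1 did not exceed 1 FPKM in any control morula and passed the filter through the 2-cell libraries, so their calls are a description. Between control morulae and blastocysts, the LIM cofactor Ldb1 fell by 1.845 (limma, adjusted p = 2.82e-05) and Lmo2 rose by 1.09 (adjusted p = 0.0045), where 12.9% and 13.4% of all genes tested did. In the KD comparisons, 0 genes of these 4 lists were called with limma at any stage. At an unadjusted p under 0.05, they numbered 3 at the 2-cell stage, 3 in morulae and 5 in blastocysts. Over all genes, 701 of 12160, 3352 of 10989 and 5439 of 11828 tested passed that p at these stages. The genes tested in the 4 lists, in the order above, numbered 5, 2, 5 and 1 at the 2-cell stage. In morulae they numbered 5, 1, 3 and 0, and in blastocysts 6, 1, 5 and 0. The difference of the KD effect between blastocysts and morulae was called higher for Ldb1 (1.26, SE 0.307, limma, adjusted p = 0.0137), where 3.52% of all genes tested were.

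Polycomb genes, whose products silence these factors in later development, were active throughout, with 24, 20 and 21 of 32 above 1 FPKM in control 2-cell embryos, morulae and blastocysts. Between 2-cell embryos and morulae 11 fell and 5 rose of 24 tested, where 30.1% and 32.1% of all genes tested did, with a median log2 fold change of -0.71 against 0.0974 over all genes. Bmi1 was at 240 ± 35.1 FPKM and then 4.86 ± 1.07 FPKM, and fell by 5.37 (SE 0.181, limma, adjusted p = 2.03e-10). In KD embryos, 0 of 24 were called with limma at the 2-cell stage (3 at an unadjusted p under 0.05) and 0 of 21 in morulae (5 at that p). In KD blastocysts 1 of 21 was called higher, where 6.06% of all genes tested were, and 0 lower, where 7.69% were. It was Kdm2b, a subunit of a variant PRC1 complex that binds CpG islands, which was at 7.14, 4.54, 10.6 and 5.96 FPKM against 1.05, 1.13, 1.13 and 1.32 FPKM in controls and rose by 1.85 (SE 0.197, adjusted p = 4.60e-05).

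Markers of other cells that a pool of embryos could carry were low. The 8 cumulus and granulosa cell markers summed to at most 0.168 FPKM per library in morulae and blastocysts, with Fshr and Ptx3 listed at 0 there, and to 0.964 to 3.41 FPKM at the 2-cell stage, nearly all of it Tnfaip6. The 5 oviduct markers summed to at most 2.17 FPKM, with Ovgp1 the most abundant and Foxj1 listed at 0 in all 6 groups, and the 6 fibroblast markers to at most 1.04 FPKM, mostly Postn, with Col1a2 and Lum at 0 in all 6 groups. Oocyte markers, by contrast, were abundant at the 2-cell stage (764 to 1064 FPKM, mostly Oosp1) and fell with Meis2, Lhx8 and Hoxa7 to 4.92 to 10.1 FPKM in control morulae. Of these markers, 5 of 5 were called lower, where 30.1% of all genes tested were. The 2-cell markers fell in the same interval, from 168 to 242 FPKM to 1.46 to 6.03 FPKM, with 5 of 5 also called lower. As both lists were chosen as markers of early stages, and several of their genes passed the filter through the 2-cell libraries, these counts are a description. The part of stored and of newly made RNA in the 2-cell level of the 3 genes was not tested. The 7 trophectoderm markers summed to 990 to 1477 FPKM in control and 584 to 784 FPKM in KD blastocysts. Of these 7, 2 fell (Elf5 and Krt18), where 7.69% of all genes tested did, and 0 rose, where 6.06% did. The 7 markers of the inner cell mass and primitive endoderm summed to 119 to 229 FPKM in control and 147 to 311 FPKM in KD blastocysts (0 of 4 called with limma, 1 at an unadjusted p under 0.05). In morulae, the latter 7 markers summed to 140 to 174 FPKM in control and 40.9 to 59.6 FPKM in KD embryos, with Nanog the most abundant gene of control embryos. Of 3 tested, 1 was called lower, where 2.53% of all genes tested were, and 0 higher, where 0.992% were. Nanog was at 62.9, 103, 113 and 143 FPKM in control and 17.9, 11.6 and 32.5 FPKM in KD morulae and fell by 2.23 (SE 0.375, limma, adjusted p = 0.00647, lower in 3 of 3). The part of these cells in the levels of Hoxc13, Hoxb13 and the other genes in KD morulae was not tested.

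Promoter sequences were available from RefSeq for 51 of the 81 symbols, as 61 promoters on GRCm38.p6. In windows of 300 bases, from 250 before to 50 after the start, they held a median of 17 CG dinucleotides, against 7 in all 32851 promoters. On either strand, GGGCGG was found in 52.5% of the 61 and 35.7% of all promoters, CCAAT in 50.8% and 37.4%, and TATAAA in 11.5% and 13.6%. The 250 bases before the start are printed 5′ to 3′ for Meis2, Hoxa7 and Lhx8, which were lost together after the 2-cell stage, for Hoxd8, which was most abundant in blastocysts, and for Pbx4, which was detected in every library, with each CG in capitals. The promoters of Meis2 (chr2:116064620-116064869, minus strand), Hoxa7 (chr6:52218574-52218823, minus strand) and Lhx8 (chr3:154330561-154330810, minus strand) held 7, 7 and 4 CG in these bases, and only that of Meis2 held CCAAT or TATAAA. Those of Hoxd8 (chr2:74704365-74704614, plus strand) and Pbx4 (chr8:69832374-69832623, plus strand) held 6 and 12 CG and a CCAAT each. A match is a description of the letters only.
Meis2: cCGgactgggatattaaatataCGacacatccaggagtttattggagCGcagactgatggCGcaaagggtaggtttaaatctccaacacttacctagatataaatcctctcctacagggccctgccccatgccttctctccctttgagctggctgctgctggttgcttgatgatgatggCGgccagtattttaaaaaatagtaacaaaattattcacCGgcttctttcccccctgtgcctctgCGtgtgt
Hoxa7: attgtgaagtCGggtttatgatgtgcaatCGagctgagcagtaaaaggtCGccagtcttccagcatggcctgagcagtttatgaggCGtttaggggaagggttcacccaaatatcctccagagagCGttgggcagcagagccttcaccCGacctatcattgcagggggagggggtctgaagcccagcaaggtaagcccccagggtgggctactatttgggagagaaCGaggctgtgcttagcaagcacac
Lhx8: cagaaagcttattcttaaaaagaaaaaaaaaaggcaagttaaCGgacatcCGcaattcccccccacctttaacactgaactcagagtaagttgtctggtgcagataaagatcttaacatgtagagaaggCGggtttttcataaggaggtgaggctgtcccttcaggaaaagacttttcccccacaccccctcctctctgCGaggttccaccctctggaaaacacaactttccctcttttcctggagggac
Hoxd8: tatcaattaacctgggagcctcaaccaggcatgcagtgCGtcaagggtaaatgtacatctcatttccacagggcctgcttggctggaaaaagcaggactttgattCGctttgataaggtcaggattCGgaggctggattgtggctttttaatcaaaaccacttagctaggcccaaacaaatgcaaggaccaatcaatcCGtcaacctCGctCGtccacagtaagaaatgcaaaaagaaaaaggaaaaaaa
Pbx4: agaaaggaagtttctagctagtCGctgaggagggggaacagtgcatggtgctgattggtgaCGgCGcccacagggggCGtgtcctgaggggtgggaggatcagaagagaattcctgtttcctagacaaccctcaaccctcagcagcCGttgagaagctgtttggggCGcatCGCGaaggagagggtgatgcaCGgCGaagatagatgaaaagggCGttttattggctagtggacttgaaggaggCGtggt

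Sequencing depth could be judged only roughly, from the spacing of low values, of which 22.6% to 37.8% lay on a step. The spacing gave relative depths of 17.5 to 29.4 over the libraries, with 24481 to 29177 genes above 0 in each. The precision of levels near 0.1 FPKM was not measured, and the values of each library given above show their spread.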

How the data were processed

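FPKM values were used as deposited by the authors, who aligned reads with STAR to mm10 (GRCm38) and quantified genes with StringTie 2.1.4. For each comparison, values were scaled by median of ratios, genes with at least 1 FPKM in at least 3 libraries were kept, and log2(FPKM + 1) was fitted with limma 3.58.1 (R 4.3.3, lmFit and eBayes with trend) with Benjamini-Hochberg adjustment over all genes tested. A gene was called at an adjusted p under 0.05 and a log2 fold change above 1 in size. Genes under the filter were compared by an exact permutation test of the mean of log2(FPKM + 1). Tables and figures were made with Python 3.11.15, numpy 2.4.6, pandas 2.3.3 and matplotlib 3.10.9. Among the members drawn, values were given in full for each with a group mean of at least 1 FPKM, each called in the fit described above, and Pax6 and Hoxb13, which the study names. They were given as ranges for the 10 next highest. Of the 81 members, 3 are counted but not named or drawn. From other lists, up to 4 called genes with the largest change were named. Members and lists were chosen with earlier results of these data known. Alternatives were FPKM as deposited, a pseudocount of 0.1, no filter, replicate number as block, the range of replicate numbers as batch, each library left out, other levels for active, and, added after the data were seen, a pseudocount of 0.1 with no filter and the alternatives of the exact test.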

Additional observations from a re-analysis of the deposited data

Results flagged for a closer look

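In 64 groups of 4 libraries over 28 genes, 4 single values stood apart from the other 3 by Dixon's ratio, where chance gives about 1 in 20 groups. Hoxa7 was at 0.126 FPKM in control blastocyst replicate 4 and listed at 0 in the other 3 (ratio 1.0). Hoxb2 was at 0.321 FPKM in control 2-cell replicate 4, against 0.0742 to 0.0875 FPKM in the others (ratio 0.946). Meis2 was at 0.363 FPKM in KD blastocyst replicate 5, the highest of its group (ratio 0.874). Pax6 was at 0.512 FPKM in control morula replicate 2, above 0.101 to 0.121 FPKM in the others (ratio 0.95). All 4 values were kept.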

How the results depend on the processing

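No call was reversed by an alternative. Of 207 alternatives for 16 results of tested members, 204 gave the same call and 3 a stronger one. A change of sign was counted only where a fit called the gene, so it was not followed in results that were never called. The 264 alternatives for 27 results of members under the filter kept their direction. These members were picked for not overlapping, so leaving out a library or changing the pseudocount could not reverse them, and the count is no support. With a pseudocount of 0.1 and no filter, members called rose from 0 to 1 in KD morulae, from 0 to 2 in KD blastocysts and from 0 to 4 in blastocysts against morulae, and in morulae against 2-cell embryos from 3 to 10 lower and from 0 to 1 higher (Hoxb13). With the pseudocount alone 1 was also called higher there, but that gene was Pbx4, which lost the call without the filter. Genes called in all went from 387 to 789 (pseudocount 0.1) and 169 (no filter) in KD morulae, from 1626 to 2477 (pseudocount 0.1) and 2798 (both) in KD blastocysts, from 8490 to 14505 and from 3108 to 5889 (both) in the stage comparisons, and from 972 to 572 (no filter) in the interaction, and leaving out 1 library gave 0 to 3 in KD 2-cell embryos. Active members above 0.5 FPKM numbered 8 in control 2-cell embryos, 2 in KD morulae and 2 in KD blastocysts, and above 2 FPKM 3 in control and 3 in KD 2-cell embryos, 0 in control morulae and 0 in control blastocysts. In control blastocysts 1 was active in every library, and leaving out 1 library gave 1 to 2 active members there and in KD blastocysts. Silent members numbered 34, or 8 if only those listed at 0 are counted. With FPKM as deposited, the median of all genes moved from 0.0152 to -0.0852 in KD morulae, with 14.3% of calls higher in place of 28.2%, and from -0.00862 to 0.111 in the interaction, with 58.2% in place of 46.1%. The fit with replicate number as block kept only libraries whose number occurs in both groups, in morulae replicates 1 and 2 alone. It called 0, 420 and 1632 genes in KD 2-cell embryos, morulae and blastocysts and 0 members. In KD morulae the share of calls that were higher moved from 28.2% to 43.8%, with fewer libraries as well as the block. Libraries with the same number correlated at -0.111 to 0.354, so single numbers did not show pairing, and not every library correlated best with its own number. Numbers of the same range (1 and 2 against higher) did go together in morulae, where control and KD libraries correlated at 0.0944 to 0.347 within a range and -0.278 to -0.0945 across ranges, and nearly so at the 2-cell stage (-0.0211 to 0.214 and -0.237 to 0.0103), but not in blastocysts. With range as batch, 0, 358 and 1629 genes and 0 members were called, 31.6% of them higher in KD morulae, and the adjusted p of Pbx4 was 0.0609 in morulae and 0.0246 in blastocysts. The cause was not tested.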

Other observations

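Among 79 other developmental homeobox genes, Nkx2-9 was at 4.47, 4.98 and 4 FPKM in KD morulae and at 1.44, 0.281, 0.289 and 0.347 FPKM in control morulae, and rose by 1.92 (SE 0.212, limma, adjusted p = 0.00107), the 1 of 10 tested that was called, higher as were 0.992% of all genes tested, with 0 lower, as were 2.53%. In blastocysts it was at 10.9, 7.24, 6.10 and 9.09 FPKM in KD and at 0.143, 0.107, 0.486 and 0.238 FPKM in control embryos, and rose by 2.88 (SE 0.211, adjusted p = 2.91e-06). There, 4 of 7 tested were called higher, where 6.06% of all genes tested were, and 0 lower, where 7.69% were, the others being Nkx6-2 (1.62, adjusted p = 0.000345), Hhex (1.21, adjusted p = 0.00768) and Isl2 (1.00, adjusted p = 0.00131). Nkx2-9, Nkx6-2 and Isl2 had a mean above 1 FPKM in KD but not in control blastocysts, as had Nkx2-9 in morulae. A gene that passes the filter through the group where it is high has to differ, so these counts are a description. At the 2-cell stage, 0 of 11 and 0% of all genes tested were called with limma, with 0 at an unadjusted p under 0.05. Between control 2-cell embryos and morulae, 2 of 12 rose and 5 fell, where 32.1% and 30.1% of all genes tested did, with Sebox falling most (-4.72, adjusted p = 4.30e-10).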
